A study of Bubalus bubalis with 12 samples.

Results

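MEG3, BLCAP and UBE3A, 3 imprinted genes, were followed for 2 histone marks in sperm of water buffalo (Bubalus bubalis) bulls of high and low fertility. They carry 30 of the 177440 non-control probes of the array, chosen because the array names one of these genes for the probe: 25 for MEG3, 2 for BLCAP and 3 for UBE3A. All 30 passed the filter on dim probes (input signal well above background on at least 6 of the 12 arrays), and the 3 genes are among 6805 with at least 2 such probes. The genes were picked on their fertility differences in an earlier pass through these data, in the log2 ratios of both marks. Among the 27 measured genes of an imprinted-gene list, MEG3 ranked 1 by p for the H3K4me2 difference between fertility groups, and BLCAP and UBE3A ranked 1 and 2 for H3K27me3. Every fertility difference given here for these genes is therefore a description, with no test.

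The high-fertile group held the bulls HF2, HF3 and HF5 and the subfertile group SF1, SF4 and SF5, all sampled as cryopreserved semen. Cross-linked sperm chromatin was cut with micrococcal nuclease and precipitated with an antibody to H3K4me2 or to H3K27me3. Each bull gave 1 two-colour array per mark, on which its ChIP DNA was labelled with Cy5 and its own input with Cy3, both amplified through linkers. The groups thus comprise 3 bulls each per mark, and the labels name no difference between the groups other than fertility. The labels give neither the breed nor the age of the animals, nor how fertility was scored. The median signal of an array before dye normalization lay between 321 and 479 for input and between 356 and 1360 for ChIP. The number of arrays limited the precision. In the median gene the 95% confidence interval of a mark difference reached 0.80 log2 units to either side. The fit behind it did not pair the arrays of a bull. The arrays measure DNA, so the sperm label cannot be checked through RNA. Of 17 sperm and spermatid genes 6 had enough probes, with a mean H3K4me2 ratio above 0 in 4, against 1 of 4 leukocyte, 4 of 5 epithelial and 1 of 2 somatic testis genes. Over all genes the ratio was above 0 in 3936 of 6805, so these counts do not check the label either.

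An imprinted gene is transcribed mainly from the copy inherited from one parent, and the difference rests on DNA methylation laid down in the germ line of that parent. Sperm exchange most histones for protamines, and the nucleosomes that stay often lie at CpG-rich promoters, where H3K4me2 accompanies active or poised genes and H3K27me3 is placed by Polycomb complexes at silenced ones. MEG3 is a maternally expressed long non-coding RNA between DLK1 and RTL1, and its promoter region is methylated on the paternal copy. BLCAP encodes a small protein linked to apoptosis and harbours the paternally expressed NNAT within its locus. UBE3A encodes a HECT ubiquitin ligase, expressed from the maternal copy in neurons, and its loss causes Angelman syndrome.

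The DNA that the probes read is shown first, because the probes of 1 gene overlap or lie apart and did not all behave alike. Positions are those of the cattle build HGSC Btau_3.1 in the file headers, since the array was designed on cattle sequence, and capitals mark CpG sites. The files list no strand, and overlapping probes of MEG3 and UBE3A join in ascending coordinate order. The array annotates 22 MEG3 probes to a CpG island and 3 to a promoter. They cover chr21:65811688-65812249 in 3 separate stretches, of which stretch 3 is tiled by 21 probes and stretch 2 by 3, 2 of these being the same sequence at 2 spots. The array's classes are the only annotation used here, so exons and introns are not given.
MEG3 stretch 1 (chr21:65811688-65811747): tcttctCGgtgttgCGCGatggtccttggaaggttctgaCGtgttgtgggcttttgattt
MEG3 stretch 2 (chr21:65811980-65812043): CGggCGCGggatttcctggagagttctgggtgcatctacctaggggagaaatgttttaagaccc
MEG3 stretch 3 (chr21:65812101-65812249): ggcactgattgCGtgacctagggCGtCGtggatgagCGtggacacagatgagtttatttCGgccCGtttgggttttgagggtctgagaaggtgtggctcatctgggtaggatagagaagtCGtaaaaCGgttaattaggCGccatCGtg

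BLCAP is read by a CpG island probe and a promoter probe. The interval listed for the first spans 564 bases, chr13:67056157-67056720, while the probe itself has 60, and the second lies at chr13:67058214-67058273. UBE3A is read by 3 promoter probes, 1 of which stands alone while the other 2 overlap. These are shown because the promoter probe of BLCAP and the overlapping pair of UBE3A carry the H3K27me3 values described further on.
BLCAP CpG island probe: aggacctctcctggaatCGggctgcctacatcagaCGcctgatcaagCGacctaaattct
BLCAP promoter probe: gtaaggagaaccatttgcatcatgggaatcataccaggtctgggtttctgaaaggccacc
UBE3A probe 1 (chr21:342361-342420): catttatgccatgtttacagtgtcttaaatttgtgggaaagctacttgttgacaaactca
UBE3A probes 2 and 3 (chr21:343261-343355): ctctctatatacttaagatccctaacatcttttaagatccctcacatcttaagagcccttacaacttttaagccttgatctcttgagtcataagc

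The genes differ in base composition. G and C make up 46.7% to 53.3% of the MEG3 probes, 48.3% to 53.3% of those of BLCAP and 35.0% to 41.7% of those of UBE3A, against a median of 51.7% over all probes. MEG3 probes hold 1 to 5 CpG sites, the BLCAP island probe holds 3, and the BLCAP promoter probe and all UBE3A probes hold 0. The motif TGCCGC, bound in its methylated form by the imprint-keeping factor ZFP57, was searched on both strands and occurred in 0 of the 30 probes, while 2.03% of all probes have it.

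Values are log2 ratios of the ChIP to the input colour, with the median probe of each array set to 0, and a gene's value is the mean over its probes. Input level is the log2 Cy3 signal relative to the array median, averaged over the 2 arrays of a bull. ChIP level is the ratio plus the input level, so a difference in ratio equals the difference in ChIP level minus that in input level. A lower ratio from fewer cells with the mark and one from less of the mark per cell cannot be told apart in such pools of sperm. Repeat measurements were close. The input of a MEG3 probe differed between the 2 arrays of a bull by a median of 0.081 log2 units, and by 0.084 for BLCAP and 0.13 for UBE3A. The MEG3 sequence printed at 2 spots differed between its spots by 0.021 to 0.27 over the 12 arrays.

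The first question was whether either mark stood above the array median at these genes, and whether the marks differed. The choice of the genes did not use these contrasts. It did use the fertility differences, which add to the SD over the 6 bulls and to the spread in the tests against 0. The mean H3K4me2 ratio was 0.31 ± 1.11 for MEG3 (log2, SD, n = 6 bulls), -0.22 ± 0.67 for BLCAP and -0.20 ± 0.76 for UBE3A. For H3K27me3 the ratio was 0.20 ± 0.57 for MEG3, -0.05 ± 0.82 for BLCAP and -0.02 ± 1.05 for UBE3A. All 6 means lay within 1 SD of the array median. In limma fits over 6805 genes, with Benjamini-Hochberg adjustment, the adjusted p against 0 was 0.916, 0.916 and 0.930 for H3K4me2 in MEG3, BLCAP and UBE3A. It was 0.971, 0.994 and 0.995 for H3K27me3. At an adjusted p of 0.05 limma called 0 genes (0%) for either mark, with 348 (5.11%) at an unadjusted p under 0.05 for H3K4me2 and 389 (5.72%) for H3K27me3.

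H3K4me2 exceeded H3K27me3 by 0.11 log2 units for MEG3 (95% confidence interval -0.84 to 1.06), with the higher value in 4 of 6 bulls. The difference was -0.17 for BLCAP (-0.92 to 0.59), with H3K4me2 the higher in 1 of 6 bulls. It was -0.18 for UBE3A (-1.13 to 0.77), with H3K4me2 the higher in 4 of 6. The adjusted p of limma was 1.00 for each gene, so no difference between the marks was detectable, and the intervals at MEG3 and UBE3A reach from clearly higher to clearly lower H3K4me2. Over all genes limma called 0 of 6805 (0%), with 41 (0.602%) at an unadjusted p under 0.05. The fit behind these intervals and calls did not pair the arrays of a bull. Bulls as replicate blocks in limma compare each bull's arrays in pairs. The differences of the 3 genes then kept their values, at adjusted p of 0.946, 0.931 and 0.954. The genes with an unadjusted p under 0.05 then numbered 283 (4.16%), and 0 passed the adjustment. Among single probes the difference between marks ran from -0.11 to 0.42 over the 25 MEG3 probes, from -0.22 to -0.11 at BLCAP and from -0.38 to 0.07 at UBE3A. The fit called 0 of the 30, and 0 of 175796 probes in all (0%), with 878 (0.499%) at an unadjusted p under 0.05.

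**Figure D1:**
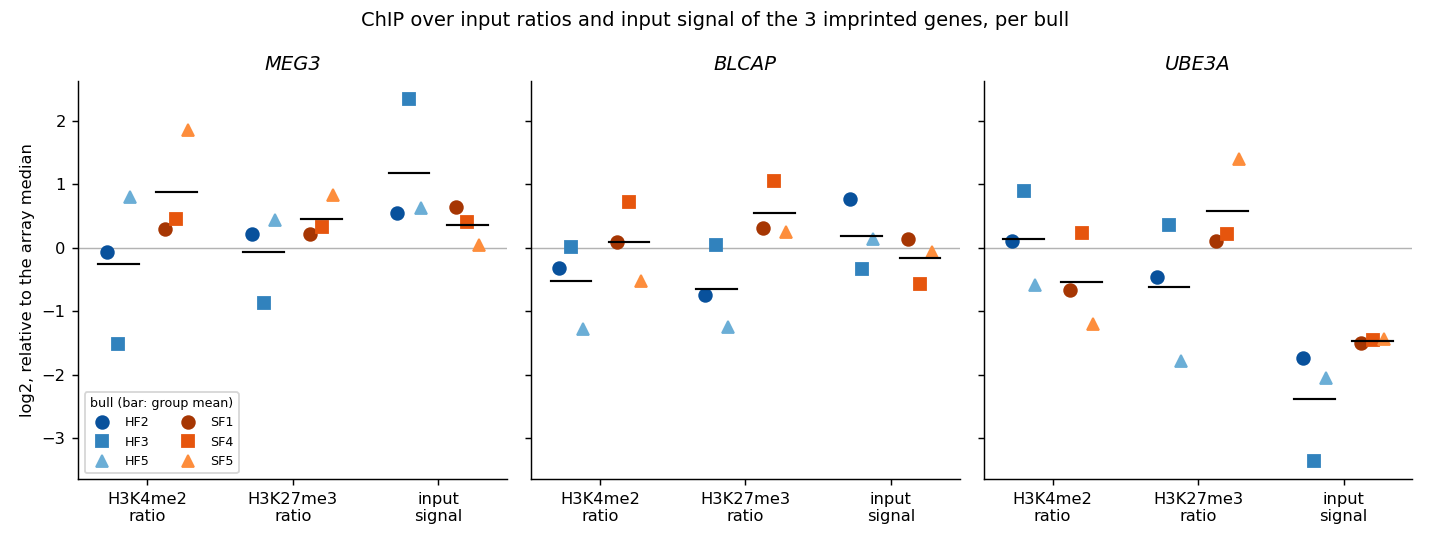
Log2 ratio of ChIP over input for H3K4me2 and H3K27me3, and log2 input signal, of MEG3, BLCAP and UBE3A in each bull (blue, high-fertile; orange, subfertile), on the y axis relative to the array median; bars are group means of 3 bulls. HF3 has the highest MEG3 input (2.34) and the lowest UBE3A input (-3.37), and the BLCAP H3K27me3 ratios of the high-fertile bulls (at most 0.05) lie below those of the subfertile bulls (at least 0.26).

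The series set high-fertile against subfertile bulls. MEG3 had the lower H3K4me2 ratio in the high-fertile group on average, by 1.13 log2 units, with the groups overlapping. Single bulls had -0.06 (HF2), -1.52 (HF3) and 0.80 (HF5), and 0.30 in SF1, 0.46 in SF4 and 1.86 in SF5. HF3 was the lowest bull and SF5 the highest, while HF5 exceeded SF1 and SF4. The group means were -0.26 ± 1.17 and 0.87 ± 0.86 (SD, n = 3 bulls each), and 6.83% of the 6805 genes differed by as much in either direction. Without HF3 the difference was -0.51, and without SF5 -0.64. HF5 and SF1, the one pair of opposite fertility on a shared slide, differed the other way, by 0.50.

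The H3K27me3 ratio of MEG3 followed the same bulls. It was 0.22 in HF2, -0.87 in HF3 and 0.45 in HF5, and 0.21 in SF1, 0.34 in SF4 and 0.83 in SF5. HF3 again stood lowest and the other 5 bulls lay above 0. The means were -0.07 ± 0.71 and 0.46 ± 0.33, a difference of -0.53 that was -0.13 without HF3 and -0.35 without SF5. Within the shared slide HF5 exceeded SF1 by 0.23.

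The low MEG3 ratios of HF3 went with a high input. The MEG3 input level was 0.56 in HF2, 2.34 in HF3 and 0.63 in HF5, and 0.64 in SF1, 0.40 in SF4 and 0.05 in SF5. HF3 lay 1.89 log2 units (3.71-fold) above the mean of the other 5 bulls, and 1.56% of the 6805 genes had an HF3 input at least as far above. The H3K4me2 ChIP level was 0.84 in HF3, between the lowest, 0.47 in HF2, and 0.88 in SF4, with 1.90 in SF5 the highest. The H3K27me3 ChIP level of HF3, 1.46, was the highest of the 6 bulls. By ChIP level alone the high-fertile minus subfertile difference was -0.31 for H3K4me2 and 0.27 for H3K27me3, against an input difference of 0.81 that was 0.23 without HF3. With each ChIP signal set over the mean input of the 6 bulls, the differences in ratio were -0.26 for H3K4me2 and 0.33 for H3K27me3, the second with the opposite sign. Whether the input of HF3 or the mark in its sperm accounts for the low ratios was not tested.

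The difference was not spread evenly over MEG3. In stretch 3 the mean H3K4me2 ratio was 1.38 log2 units lower in the high-fertile group and the H3K27me3 ratio 0.64 lower. In stretch 2 the differences were 0.20 and 0.07 in the other direction, and at the single probe of stretch 1 they were -0.07 and -0.08. By ChIP level the stretch 3 differences were -0.42 for H3K4me2 and 0.27 for H3K27me3, both with overlap. The input of stretch 3 was 0.93 higher in the high-fertile mean. The input of HF3 in stretch 2 was 0.27, between the 0.44 and 0.58 of HF5 and SF1 and the 0.05 of SF4, while in stretches 1 and 3 it was 3.19 and 2.60, the highest of the 6 bulls. Of the 25 probes, 23 had the lower high-fertile mean ratio for each mark, and 0 had the lower high-fertile mean input. All high-fertile bulls lay below all subfertile bulls at 7 probes for H3K4me2 and at 4 for H3K27me3; over all probes with values 3.40% and 3.83% did so. Probes of a stretch overlap their neighbours, so the 25 do not count as separate measurements.

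The 4 probes at which this held for both marks are neighbours. They start within 9 bases of each other, share 52 bases, and cover bases 34 to 101 of stretch 3 as printed above (chr21:65812134-65812201). Their high-fertile minus subfertile differences were -3.21 to -2.55 for H3K4me2 and -2.04 to -1.36 for H3K27me3. These probes were singled out by those values. Their mean H3K4me2 ratio was -0.23 in HF2, -2.81 in HF3 and -0.50 in HF5, and 1.78 in SF1, 1.08 in SF4 and 2.31 in SF5. The input of these probes dipped in some bulls and not in others. The mean input level there was 0.07 in HF2, 2.47 in HF3 and -0.98 in HF5, and -1.77 in SF1, -1.55 in SF4 and -1.02 in SF5. Over the other 17 probes of the stretch the same bulls had 0.80, 2.63, 1.02, 1.18, 0.94 and 0.28. The fall was thus deepest in SF1, from 1.18 to -1.77, and shallowest in HF3, from 2.63 to 2.47. At the 4 probes the input was higher in the high-fertile mean, by 1.57 to 2.29. At each of them this exceeded the H3K27me3 ratio difference in size. The lower H3K27me3 ratios there thus do not show a lower ChIP level.

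**Figure D2:**
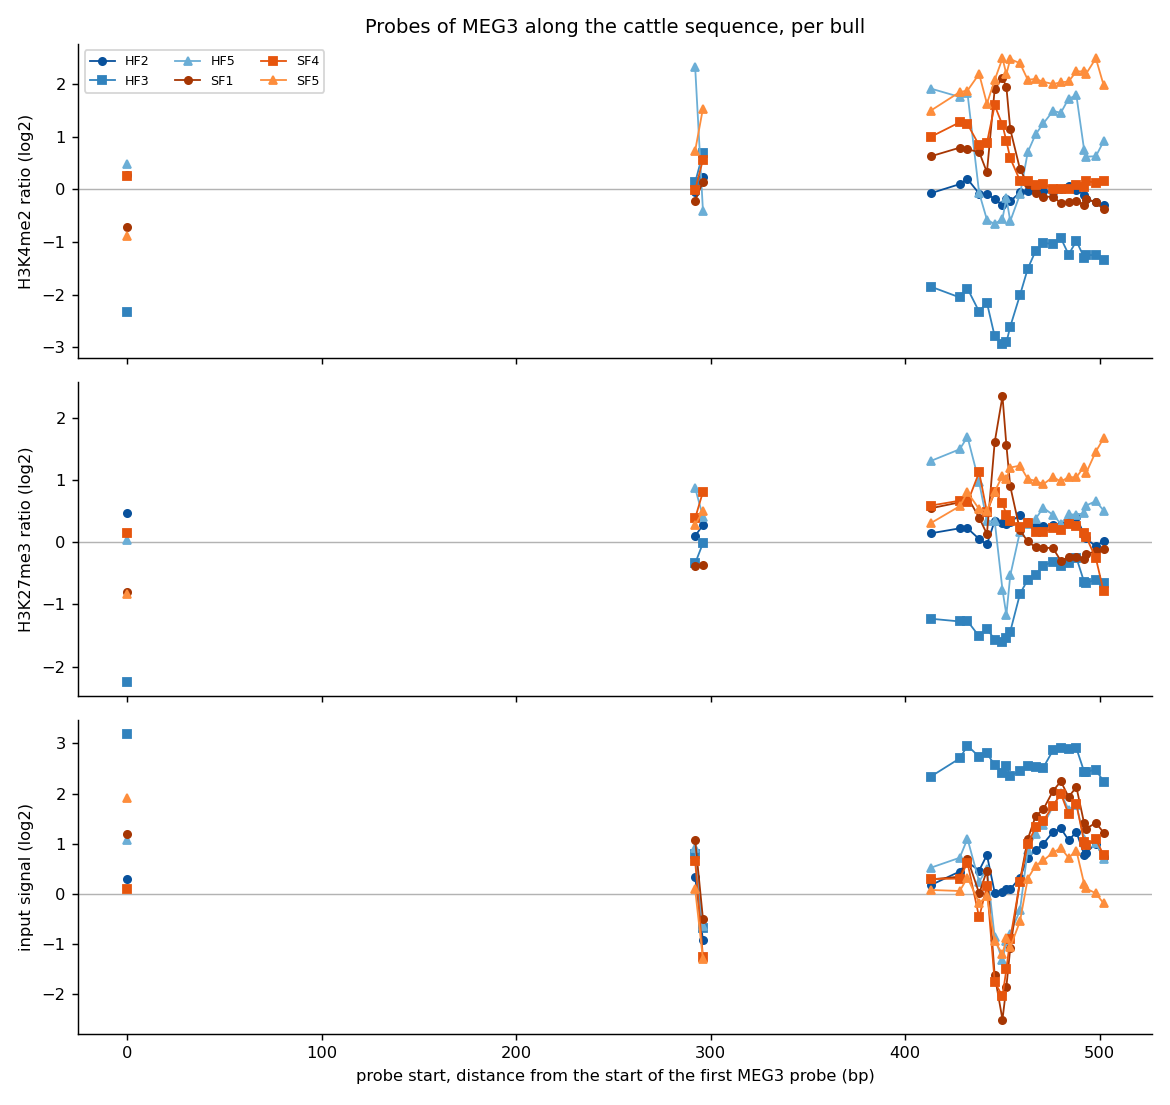
MEG3 probes by distance of the probe start from the first probe (x axis, bp) with the log2 H3K4me2 ratio, H3K27me3 ratio and input level of each bull (y axes, relative to the array median); a line joins probes of 1 stretch, and the sequence printed at 2 spots is drawn once. The input of SF1 and SF4 falls below -2 at 1 probe of stretch 3, while HF3 keeps an input between 2.24 and 2.96 along it, and the ratios of SF1 peak at 2.11 and 2.35 at that probe.

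The marks of 1 bull traced similar profiles over the 25 MEG3 probes. Pearson r between the H3K4me2 and H3K27me3 ratios was 0.97 in SF1, 0.89 in SF5, 0.86 in HF3, 0.65 in SF4, 0.63 in HF5 and 0.41 in HF2. These values are descriptions across overlapping probes, and the arrays of a bull share its input DNA and slide. In HF2, the bull with the lowest r, the ratios of all probes stayed between -0.31 and 0.47 for both marks.

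MEG3 sits in the imprinted region from BEGAIN to DIO3, where the array has 29 other features: 13 named genes or microRNAs and 16 CpG islands without a symbol. The high-fertile mean was the lower one for H3K4me2 at 14 of the 29 and for H3K27me3 at 10. All high-fertile bulls lay below all subfertile bulls at 0 of the 29 for H3K4me2 and at 2 for H3K27me3, while 3.1% and 4.01% of all genes did so. DLK1, the paternally expressed inhibitor of adipocyte differentiation, had a difference of -0.14 for H3K4me2 and -0.38 for H3K27me3. RTL1, a retrotransposon-derived gene needed in the placenta, had 0.21 and 0.38, and the deiodinase DIO3 had 0.07 and -0.22. The 3 genes had overlapping groups for both marks. The high-fertile mean was lower for both marks, as at MEG3, at 6 of the 29, with 3 on the DLK1 side of MEG3 and 3 on its RTL1 side. The 2 features without overlap for H3K27me3 lie on the RTL1 side. PEG11AS, the transcript antisense to RTL1, starts 50435 bases beyond MEG3 and had -1.18 and -0.76, and the microRNA gene MIR431, which overlaps it, had -2.77 and -2.34. Both were named after their values were seen. The input of MIR431 was below the array median in every bull. It was -1.16 in HF2, -0.66 in HF3 and -2.45 in HF5, and -4.23 in SF1, -2.67 in SF4 and -1.64 in SF5.

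The input of HF3 was high at some features of this region and low at others. HF3 had the highest input of the 6 bulls at 9 of the 29 other features and the lowest at more of them. No share over all genes is given for either. Features with the lowest input in HF3 included BEGAIN, RTL1, MIR433 and MIR758. Its input stood 1.25 log2 units above the mean of the other bulls at PEG11AS, 1.77 at MIR431 and 3.70 at a CpG island 83506 bases beyond MEG3. The same measure was 0.55 at DLK1, -0.54 at RTL1, -1.19 at MIR433, -1.36 at MIR758 and -0.04 at DIO3. Its median over the 29 features was -0.28. At the median feature the input of HF3 was thus lower than that of the other bulls, unlike at MEG3.

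**Figure D3:**
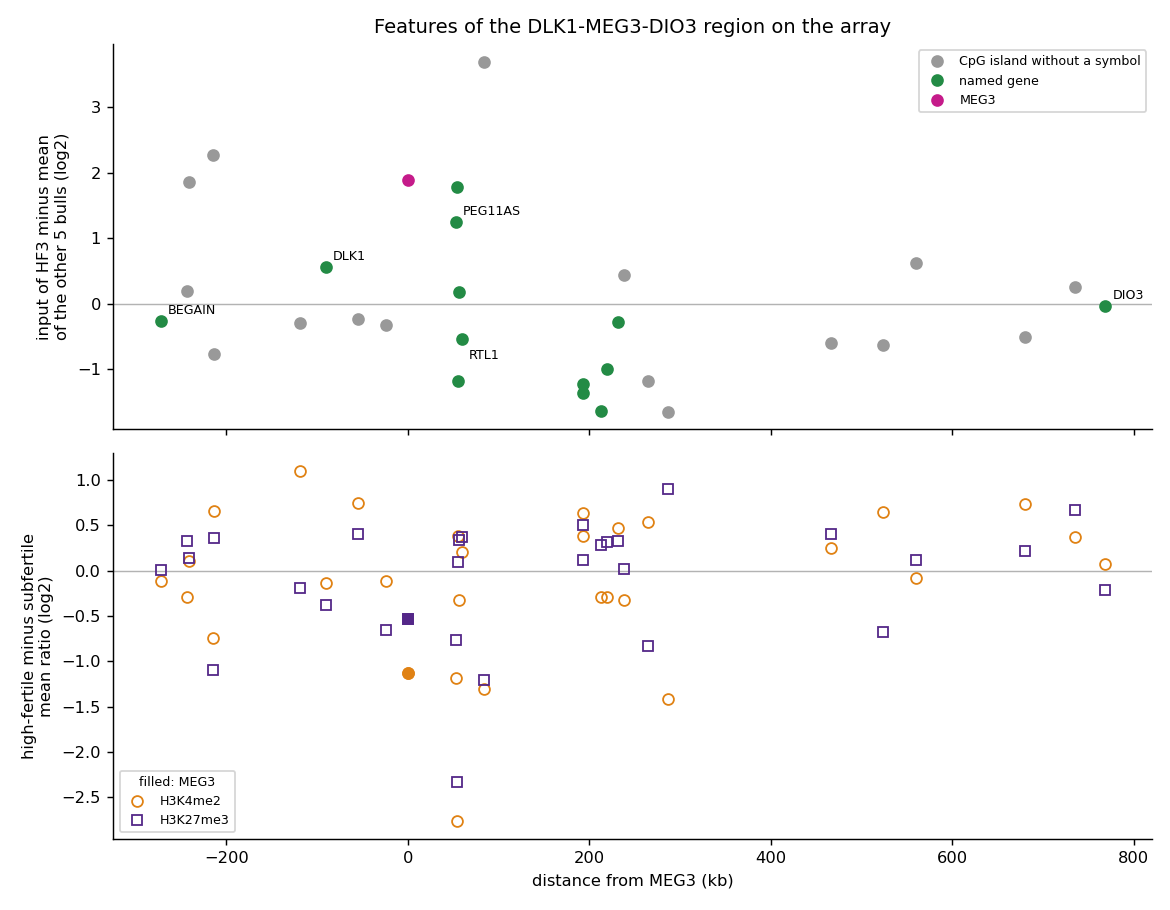
Features of the region around MEG3 by distance from it (x axis, kb): above, the log2 input of HF3 minus the mean of the other 5 bulls; below, the high-fertile minus subfertile difference in mean log2 ratio for H3K4me2 (circles) and H3K27me3 (squares). MEG3 (1.89 above; -1.13 and -0.53 below) stands beside features on both sides of 0, from -1.66 to 3.70 in input.

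BLCAP had the lower H3K27me3 ratio in all high-fertile bulls. By bull it stood at -0.74 in HF2, 0.05 in HF3 and -1.24 in HF5, and 0.31 in SF1, 1.05 in SF4 and 0.26 in SF5. The groups did not overlap, with HF3 and SF5 the closest pair. The means were -0.65 ± 0.65 and 0.54 ± 0.45, a difference of -1.19. BLCAP was the 1 gene of the 3 without overlap, where 4.01% of all genes had every high-fertile bull below, and 5.07% differed by as much in either direction. The ChIP level is the numerator of the ratio that chose the gene. It also separated the groups, with a difference of -0.89, and no share over all genes is given for it. The input difference was 0.35 with overlap, and 0.061 to 0.61 with 1 bull left out. Leaving out 1 bull at a time gave -1.53 to -0.89, the mean input of the 6 bulls as denominator gave -0.84, and HF5 lay below SF1 on the shared slide, a difference of -1.56.

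The promoter probe carried the larger part of this. Its H3K27me3 ratio was -1.04 in HF2, -0.25 in HF3 and -2.47 in HF5, and 0.35 in SF1, 1.94 in SF4 and -0.17 in SF5. The high-fertile bulls were again all lower, with a difference of -1.96, but HF3 and SF5 lay close together. At the CpG island probe the ratios were -0.44, 0.35 and -0.02 in HF2, HF3 and HF5, and 0.28, 0.17 and 0.68 in SF1, SF4 and SF5. These groups overlapped, with a difference of -0.41. By H3K27me3 ChIP level the groups overlapped at this probe too, with a difference of -0.16. At the promoter probe they differed by -1.62 without overlap, with no share over all probes given.

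The H3K4me2 ratio of BLCAP was -0.32 in HF2, 0.01 in HF3 and -1.28 in HF5, and 0.09 in SF1, 0.72 in SF4 and -0.53 in SF5. The groups overlapped. HF5 and SF5 were the lowest bulls, and they were also the lowest in the BLCAP ChIP level for this mark (-1.10 and -0.61), the numerator of the ratio. The difference of -0.62 was -0.25 without HF5, -0.31 without SF4, -0.17 over the mean input of the 6 bulls and -1.38 within the shared slide. NNAT, a small membrane protein gene 6107 bases away with 2 probes, had a high-fertile minus subfertile difference of -0.62 for H3K4me2 and 0.82 for H3K27me3, both with overlap. For H3K27me3 its sign was thus opposite to that of BLCAP. SF5 reached 3.38 for H3K4me2 at NNAT and SF4 had -1.16, so the subfertile bulls alone spanned the range of all 6.

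UBE3A had a lower mean H3K27me3 ratio in the high-fertile group and a higher mean H3K4me2 ratio, both with overlap. Its H3K27me3 ratio took the values -0.45 in HF2, 0.36 in HF3 and -1.78 in HF5, and 0.11 in SF1, 0.22 in SF4 and 1.40 in SF5. HF5 and SF5 held the ends of the range. The means were -0.62 ± 1.08 and 0.58 ± 0.71, a difference of -1.20 that 4.81% of genes matched in size. Without HF5 it was -0.62 and without SF5 -0.79, and without both -0.21. HF5 lay below SF1 on the shared slide, a difference of -1.89, and the mean input of the 6 bulls as denominator gave -2.09. By ChIP level for this mark the high-fertile bulls, at -3.79 to -2.28, lay below the subfertile bulls, at -1.41 to 0.08, a difference of -2.14. The share of all genes separated by ChIP level is not given here. At the overlapping probes 2 and 3 the ChIP levels of the groups overlapped, with a difference of -1.97.

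For H3K4me2 the UBE3A ratio came to 0.10 in HF2, 0.90 in HF3 and -0.59 in HF5, and -0.67 in SF1, 0.23 in SF4 and -1.19 in SF5. SF5 was the lowest bull for this mark and the highest for H3K27me3. The difference of 0.68 was 0.30 without HF3, 0.36 without SF5, 1.04 without HF5, 1.07 without SF4 and 0.08 within the shared slide. It depended on the processing too: it was 0.36 with loess, 0.34 in the authors' deposited table, 0.40 with the median of the probes and 0.066 with normexp background correction. Most of it came from probe 1, where the difference was 1.69 and which was dim in the input of HF2 and HF3. Over the mean input of the 6 bulls its sign turned, to -0.17. The H3K4me2 minus H3K27me3 difference was 0.56 in HF2, 0.54 in HF3 and 1.19 in HF5, and -0.78 in SF1, 0.01 in SF4 and -2.59 in SF5. Every high-fertile bull was thus above every subfertile bull in this measure, with means of 0.76 and -1.12, and no share over all genes is given for such a separation. The gap between the groups in this difference, 1.88, was matched in size by 0.808% of genes, and it uses the contrasts that chose the gene. At probe 1 alone the groups overlapped in this measure, with -0.76 in HF3 against -0.16 in SF1 and -0.39 in SF4.

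The H3K27me3 difference of UBE3A lay in the overlapping probes. At the overlapping probes 2 and 3 the mean ratio was -0.91 in HF2, -0.61 in HF3 and -2.31 in HF5, and 0.73 in SF1, 0.32 in SF4 and 1.87 in SF5. All high-fertile bulls were lower, by a mean difference of -2.25, with an input difference of 0.26. For H3K4me2 the pair differed by 0.18. Probe 2 was dim in ChIP on some arrays, with ChIP well above background on 10 of 12 over both marks, against 12 of 12 at probe 3. In HF5 the processed H3K27me3 ChIP signal of probe 2 was 26.7, behind a ratio of -2.78, and that of probe 3 was 58.6, behind -1.84. At probe 1 the H3K27me3 ratios were 0.46, 2.29 and -0.71 in HF2, HF3 and HF5, and -1.12, 0.04 and 0.45 in SF1, SF4 and SF5. The groups overlapped, with a difference of 0.89. The input behind the values of HF2 and HF3 was not well above background, so these ratios give no firm direction for probe 1. Its ChIP level does not use the input, but it is the numerator of the ratio that chose the gene. This level was lower in all high-fertile bulls for both marks, and no share over all probes is given for that. The difference was -2.48 for H3K27me3 and -1.51 for H3K4me2, beside -3.28 for the input of this probe. ChIP was well above background on 10 of 12 arrays over both marks. Its processed signals were 31.2 to 103 in the high-fertile and 136 to 483 in the subfertile bulls.

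Probe 1 of UBE3A was dim in the input of 2 high-fertile bulls. Its input level was -4.70 in HF2, -5.15 in HF3 and -2.69 in HF5, and -0.16 in SF1, -1.51 in SF4 and -1.02 in SF5. The processed input signal was 36.5 and 22.9 on the 2 arrays of HF2 and 22.7 and 21.4 on those of HF3, against 640 and 609 in SF1. Input was well above background on 9 of 12 arrays, the exceptions being both arrays of HF3 and the H3K27me3 array of HF2. The gene's mean input was -1.74, -3.37 and -2.05 in the high-fertile and -1.51, -1.45 and -1.44 in the subfertile bulls, with all high-fertile bulls lower, as in 4.63% of genes. The difference of -0.92 was -0.43 without HF3 and -0.22 with the median of the 3 probes in place of the mean. At the overlapping pair the input groups overlapped. The part of this low input in the ratios of probe 1 was not tested.

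**Figure D4:**
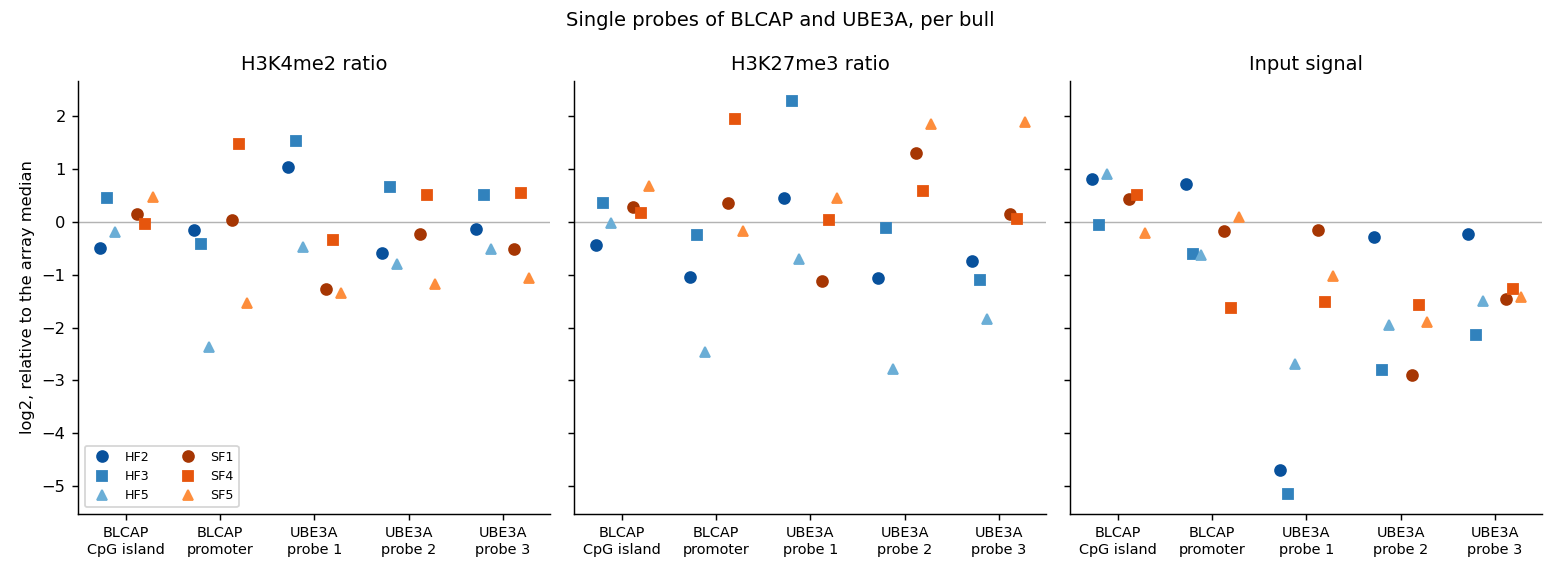
The 2 probes of BLCAP and 3 probes of UBE3A (x axis) with their log2 H3K4me2 ratio, H3K27me3 ratio and input level in each bull (y axis, relative to the array median; blue, high-fertile; orange, subfertile). The H3K27me3 ratios of the high-fertile bulls lie below those of the subfertile bulls at the BLCAP promoter probe and at UBE3A probes 2 and 3, and UBE3A probe 1 has inputs of -4.70 and -5.15 in HF2 and HF3.

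Ordered by mean ratio over the 4 groups, high-fertile H3K4me2 was the lowest at MEG3 (-0.26) and subfertile H3K4me2 the highest (0.87). At BLCAP high-fertile H3K27me3 was the lowest (-0.65) and subfertile H3K27me3 the highest (0.54), and at UBE3A the same groups held the ends (-0.62 and 0.58). Neighbours in this order overlapped in all 3 genes.

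The other 24 measured genes of the imprinted list had differences on both sides of 0. For H3K4me2 the high-fertile mean was higher at 13 and lower at 11 of them, with a median difference of 0.03, against -0.02 over all genes. For H3K27me3 it was higher at 17 and lower at 7, with a median of 0.12, against 0.01 over all genes. The groups did not overlap at 1 of 24 for either mark, against 6.58% and 8.57% of all genes. Limma called 0 of the 24 for fertility, for the marks or for enrichment, and 0 of 6805 genes (0%) for fertility, with 198 (2.91%) at an unadjusted p under 0.05 for H3K4me2 and 277 (4.07%) for H3K27me3. Between the marks, H3K4me2 had the higher mean at 18 of 24, with a median difference of 0.10, against 0.06 over all genes. Among HECT ubiquitin ligases, the family of UBE3A, 13 of 25 were measured. Their H3K27me3 difference between fertility groups was positive at 7 and negative at 6, with a median of 0.01, against 0.01 over all genes. All high-fertile bulls were lower at 2 of 13, against 4.01% of all genes.

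Genes of similar pattern were sought by Pearson r with each of the 3 genes over the 12 arrays, among 4297 or 4298 genes with at least 5 probes. For MEG3 they were USB1 (r = 0.95), which encodes an exonuclease that trims U6 RNA, ZCCHC17 (0.93) and CSF1 (0.93), the macrophage growth factor. In HF3 the H3K4me2 ratio was -1.67 at USB1, -1.23 at ZCCHC17 and -1.45 at CSF1, the lowest of the 6 bulls at each, as at MEG3. For BLCAP they were the sperm acrosome gene SPACA7 (0.91), SH3BP5L (0.91) and FAM76B (0.89). For UBE3A they were PCDHGA2 (0.93), a protocadherin, KIF5B (0.89), a kinesin heavy chain, and TAC1 (0.87), the substance P precursor. The 12 arrays include 2 of each bull with a shared input, and the highest r among so many genes is high by selection, so these are descriptions with no p.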

How the data were processed

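Sperm of 6 bulls was profiled for 2 marks on 12 two-colour arrays. The authors obtained the intensity of each spot and colour from Agilent Feature Extraction 10.7, per the submitters' processing notes, with background subtracted and dyes normalized per the file headers. In the table of values deposited with the series, log2 ratios have ChIP as numerator, as judged against the scanner files (r of 0.98 to 1.00 with loess-normalized ratios). With the median-centred ratios used here r was lower on some arrays. It was 0.74 in SF5 and 0.83 in HF5 for H3K4me2 and 0.85 in HF5 for H3K27me3, and at most 0.995, in HF2 for H3K27me3. The method of the deposited table is not given in the sources used here.

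Log2 ratios of the processed Cy5 over Cy3 signals were centred on the median of the kept probes of each array. Control spots were left out and outlier spots (13 to 546 per array) set missing. A gene's value is the mean of at least 2 kept probes, which gave 6805 of 9328 symbols. Two-sided moderated tests came from limma 3.58.1 under R 4.3.3, with p-values adjusted over all genes or probes after Benjamini and Hochberg at 0.05, tested on simulated data. Input by fertility was fitted for its background only, because it is the denominator of the contrast that chose the genes.

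The genes and the lists were chosen with earlier results of these data known. Genes named beyond the 3 were their neighbours on the array, list members, and the 3 most correlated genes each. Arrays of the same bull were read as pairs, since their inputs, each gene centred over the bulls, correlated at 0.95 to 0.98, against at most 0.19 between bulls. HF5 and SF1 share a slide; elsewhere a slide holds 1 bull and the effects of both cannot be told apart. The bulls of a group are separate animals; the number of samples from each is not given in the sources used here. UBE3A matched the buffalo RefSeq table by symbol and MEG3 and BLCAP did not, and no coordinates were taken from it. A few list members are not reported here.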

Additional observations from a re-analysis of the deposited data

Results flagged for a closer look

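In 9 sets of 6 bulls (the ratio of each mark and the input of each gene), the highest and the lowest value were checked for a gap to the next bull, as a share of the range, above Dixon's 95% limit, which chance passes in about 1 of 20 sets. It was passed 3 times, always by HF3: by its MEG3 H3K27me3 ratio of -0.87, its MEG3 input of 2.34 and its UBE3A input of -3.37. The genes were picked on the ratios of both marks, and input is their denominator, so the chance rate does not hold for these values and the flags are descriptions. The UBE3A input of HF3 rests on probe 1, where HF3 had an input level of -5.15, not well above background on either array. At the overlapping probes 2 and 3 HF3 was again the lowest, at -2.47, next to -2.18 in SF1, and did not pass the limit. The ratio and the input of MEG3 in HF3 are not independent, since the input is the denominator of the ratio.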

How the results depend on the processing

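No alternative brought a mark difference or an enrichment of the 3 genes under an adjusted p of 0.05 (limma; lowest 0.529 over 138 values), and every alternative called 0 genes and 0 probes. The replicate block, each bull as a pair, left the mark differences at 0.11, -0.17 and -0.18 and changed no call. Signs near 0 turned in 22 of the 138. Without HF5 and SF5 the mark difference was -0.18 for MEG3 and 0.082 for UBE3A, the H3K4me2 ratio -0.20, 0.13 and 0.14 for MEG3, BLCAP and UBE3A, and the H3K27me3 ratio -0.026, 0.17 and 0.061. The BLCAP H3K27me3 ratio was 0.021 with loess, 0.014 with normexp and 0.035 with the deposited table. For UBE3A it was 0.061 with loess and 0.12 with centring by probe G and C content, which gave 0.12 for H3K4me2. Leaving out 1 bull gave mark differences of -0.043 to 0.22 (MEG3), -0.24 to -0.08 (BLCAP) and -0.46 to 0.19 (UBE3A). H3K4me2 ratios were -0.0041 to 0.67, -0.41 to -0.0057 and -0.42 to -0.0044 in that order, and H3K27me3 ratios 0.07 to 0.41, -0.27 to 0.19 and -0.31 to 0.33.

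Fertility differences, untested, kept their sign in 124 of 128 values and moved by less than 1 SD between bulls in 121. Those that moved were, within the shared slide, MEG3 (0.50 for H3K4me2, 0.23 for H3K27me3) and BLCAP (-1.38 for H3K4me2). Over the mean input of the 6 bulls they were UBE3A H3K4me2 (-0.17) and MEG3 H3K27me3 (0.33). UBE3A H3K27me3 was -0.21 without HF5 and SF5, and UBE3A input -0.22 with the median of probes. Leaving out 1 bull gave -1.66 to -0.51, -0.94 to -0.25 and 0.30 to 1.07 for H3K4me2 in MEG3, BLCAP and UBE3A. The ranges were -0.79 to -0.13, -1.53 to -0.89 and -1.69 to -0.62 for H3K27me3, and 0.23 to 1.13, 0.06 to 0.61 and -1.24 to -0.43 for input. Only CpG island probes gave no value for BLCAP or UBE3A, and probes above background in both colours on all arrays none for UBE3A. The causes were not tested.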
